A study of Danio rerio with 8 samples.

Results

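Convergent start pairs are pairs of transcription start regions on opposite strands that point towards each other. A plus-strand region lies on the left and a minus-strand region on the right, and the end of the first is 0 to 1000 bases before the start of the second. The pairs were found by position alone, among 23602 start regions (11948 on the plus strand and 11654 on the minus strand) that both deposited cluster lists cover. Each region was used once, in the pair with the smallest gap. This gave 140 pairs, or 280 members, which are 1.19% of the regions. Of 147 candidate pairs, 7 were lost because a region already belonged to a closer pair. A further 160 pairs of opposite-strand regions overlapped each other and lie outside the rule.

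RNA polymerases that start at such a pair run into the same stretch of DNA from both sides, and each RNA, if it extends past the other start, is antisense to its partner. In human cells, convergent starts have been described where an antisense RNA begins inside a gene downstream of its promoter, and where enhancers lie within genes. Divergent starts, which point away from each other, are the better known opposite-strand arrangement and are common at promoters and enhancers. CAGE (cap analysis gene expression) captures capped RNA and sequences its 5′ end with the strand kept, so that the plus and minus starts of a pair are measured separately.

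Starts were measured in 8 CAGE libraries, each made from whole embryos of zebrafish (Danio rerio). Embryos carried the sa37 allele of jam3b, a junctional adhesion molecule gene, or were wild type (WT), and their age was 16 or 12 hours post-fertilization (hpf). The 4 groups of 2 libraries are sa37 at 16 hpf, sa37 at 12 hpf, WT at 16 hpf and WT at 12 hpf, with no other allele or agent named. The labels do not say whether the embryos of a group came from separate clutches, so p-values measure only the spread between these libraries. In whole embryos, fewer cells that use a start and less RNA per cell cannot be told apart. The level of jam3b itself was not analysed here, because the deposited clusters carry no gene names. Values are RPM, the authors' tags per 1000000 tags, and a library's depth over its distinct clusters was 10662399 to 23300964 tags. Replicate 1 and replicate 2 of every group were deposited with different cluster lists. A member's mean over the 8 libraries therefore spans both lists, and the replicate number, the list and its normalization cannot be told apart.

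The partners of a pair stood 1 to 962 bases apart, with a median gap of 378.5 bases and quartiles of 186.25 and 609.75. Only 18 pairs (12.9%) had a gap of up to 100 bases, whereas 57 pairs (40.7%) had a gap above 300 and up to 600 bases. A gap above 100 and up to 300 bases was found in 28 pairs, and one above 600 bases in 37. For the 748 divergent pairs found by the mirrored rule, the median gap was 292.5 bases and 24.1% had a gap of up to 100 bases. Pairs of neighbouring regions on the same strand, within 1000 bases, were closer to the convergent ones. Their median gap was 417 bases, with 17.4% up to 100 bases and 33.8% above 300 and up to 600 bases. The gap is measured between region edges, so it also depends on how wide the authors' clusters are. The stronger partner of a convergent pair had a median length of 111 bases and the weaker one 53.5 bases, against 85 bases over all regions.

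Pairs were found on all 25 chromosomes, from 1 pair on chromosome 13 to 14 pairs on chromosome 6, where members made up 2.79% of the regions. Unplaced sequences held 7 pairs, which is 5% of the pairs, although 1.42% of all regions lie on such sequences. Members often had a further neighbour. Of the 280 members, 42 (15%) were also part of a divergent pair, against 6.3% of all regions, and 66 (23.6%) were part of a same-strand pair within 1000 bases, against 15.1%. The other 179 members belonged to no such pair. These shares describe the positions and were not tested.

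**Figure D1:**
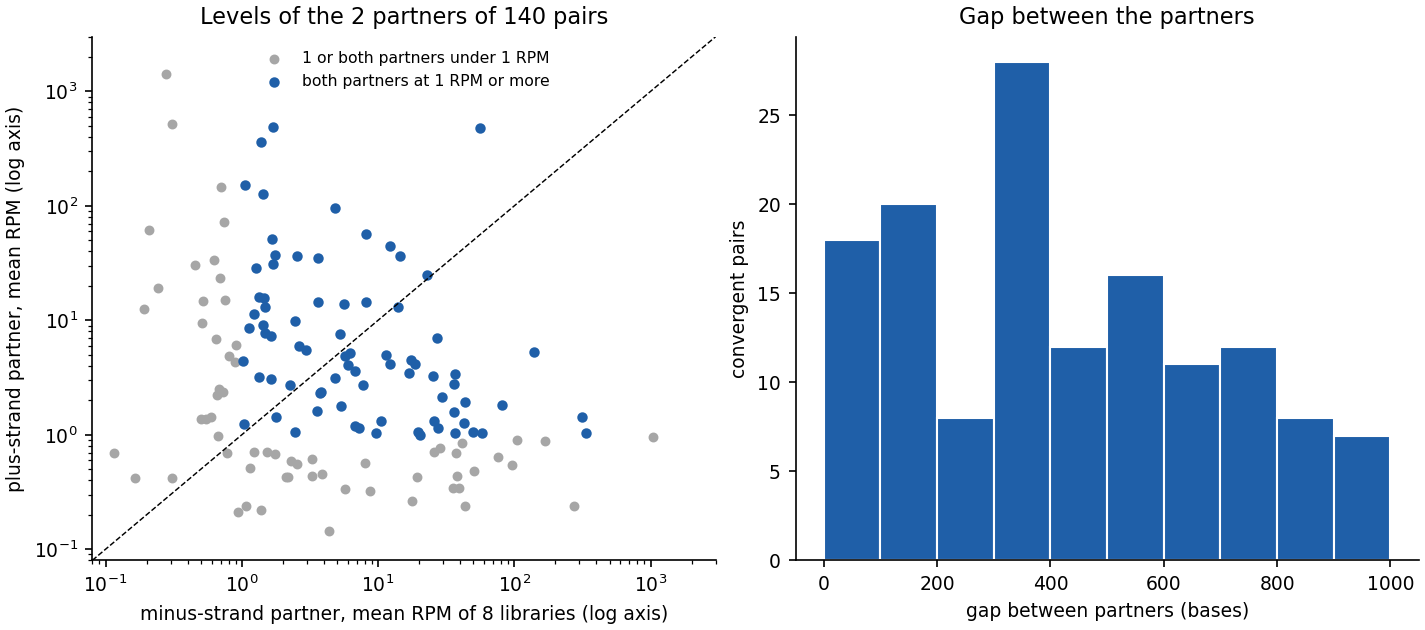
Left, mean level over the 8 libraries (RPM, log axes) of the minus-strand partner (x) and the plus-strand partner (y) of each of the 140 convergent pairs; the dashed line marks equal levels, and blue points have both partners at 1 RPM or more (77 pairs). Right, number of pairs by the gap between the partners in bins of 100 bases. Most points lie far from the line of equal levels, and the fullest bin is the one that starts at 300 bases.

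In most convergent pairs a strong start faced a weak one. The weaker partner had a median level of 1.04 RPM (quartiles 0.586 and 2.16) and the stronger one 14.1 RPM (quartiles 4.34 and 36.9), while the median over all regions was 5.08 RPM. The weaker partner carried a median of 10.9% of the tags of its pair. With 1 RPM added to each mean, the partners were within 2-fold of each other in 37 of the 140 pairs. On that scale they differed by more than 8-fold (3 on the log2 scale) in 57 pairs and by more than 32-fold (5 on the log2 scale) in 19. The added 1 RPM shrinks the ratio where a partner is weak, so the levels themselves differ by more. In 29 pairs a partner of at least 10 RPM faced one under 1 RPM. By the rule, every member has a cluster in both lists. The weaker partner was above 0 in all 8 libraries in 68 pairs and in 4 to 7 libraries in the other 72. Most of the zeros were in replicate 1. Of all members, 233 to 242 were above 0 in a replicate 1 library, against 277 to 279 in a replicate 2 library. The replicate 1 list holds no value above 0 and under 0.5 RPM, so a 0 there does not show that a start was unused. The plus partner was the stronger in 63 pairs and the minus partner in 77. The same partner was the stronger in all 8 libraries in 103 pairs and in 7 libraries in 10 more. The width of the gap went with little of this, since the median difference was 1.98, 2.23, 2.47 and 1.95 on the log2 scale from the narrowest to the widest of the 4 gap classes.

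The pair with the highest level is on chromosome 4 between 76322718 and 76322908 (coordinates of the files, danRer10 per the submitters' processing notes), with a gap of 110 bases. Its plus start had 1040 and 793.4 RPM in sa37 embryos and 1020 and 1110 RPM in WT embryos at 16 hpf, against 1790 and 1278 RPM in sa37 and 2561 and 1652 RPM in WT at 12 hpf. Every library at 16 hpf was below every library at 12 hpf. The minus start that faces it averaged 0.278 RPM. Another strong pair, between 76321885 and 76322526 on the same chromosome, ends 192 bases to the left of that pair. Its plus start averaged 480 RPM over the 8 libraries and its minus start 55.9 RPM. Between these 2 pairs in level was a pair on chromosome 21 between 5036071 and 5036254. Its strong start is on the minus strand with a mean of 1034 RPM, and its plus start averaged 0.964 RPM. The other 7 of the 10 pairs with the highest level had strong starts with means of 167.3 to 517.6 RPM. They lie on chromosomes 5, 6, 14, 15, 19 and 21, with 2 of them on chromosome 19, and their weak partners averaged 0.239 to 1.69 RPM. Thus only 1 of the 10 strongest pairs, the left pair on chromosome 4, had a weaker partner above 2 RPM.

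The weaker start of that left pair rests on 1 cluster list. It had 72.4 RPM in sa37 and 79.0 RPM in WT at 16 hpf, against 166.4 RPM in sa37 and 126.2 RPM in WT at 12 hpf, in replicate 1. In replicate 2 the same region had 0.457 RPM in sa37 and 0.672 RPM in WT at 16 hpf, against 0.401 RPM in sa37 and 1.76 RPM in WT at 12 hpf. Such a gap between the lists, over 4-fold on log2(RPM + 1) means, was found in 8 of the 280 members (2.86%) and in 1.49% of all regions. The higher values were in replicate 1 for 6 of the 8 members, and in replicate 1 for 94 and replicate 2 for 258 of the 352 such regions in all. Another example is the pair on chromosome 11 between 40414131 and 40414734, whose partners are 10 bases apart. Its plus start had 5.57 to 10.6 RPM in the replicate 1 libraries and 0.083 to 0.115 RPM in those of replicate 2. The opposite held for a strong minus start on chromosome 15 at 47270004 to 47270121, with 41.4 to 61.97 RPM in replicate 1 and 264.6 to 305.2 RPM in replicate 2. Which partner is the stronger was the same in both lists in 127 of the 140 pairs.

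Few pairs had 2 strong starts. Both partners averaged at least 10 RPM in 5 pairs, and at least 5 RPM in 12. The best balanced of the 5 is on chromosome 23 between 35996492 and 35997207, with a gap of 121 bases and means of 13.2 RPM for the plus start and 13.9 RPM for the minus start. A pair on chromosome 2 between 3203044 and 3203945 averaged 25.1 RPM on the plus strand and 22.96 RPM on the minus strand across a gap of 475 bases. The 3 others lie on chromosome 14 between 26137607 and 26138882, with 36.2 and 14.4 RPM, on chromosome 3 between 23546765 and 23547454, with 45.0 and 12.2 RPM, and on chromosome 4, the left pair above.

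The closest partners were not the most equal ones. On chromosome 8, a plus start at 25315927 to 25315929 ends 1 base before a minus start that runs to 25316176, and the levels averaged 0.144 and 4.36 RPM. A pair on chromosome 19 between 1902475 and 1902549 has a gap of 2 bases and averaged 2.38 RPM on the plus strand and 3.81 RPM on the minus strand. On chromosome 9, between 1964275 and 1964942, 3.42 RPM on the plus strand faced 36.9 RPM on the minus strand across 11 bases. On chromosome 20, between 25726978 and 25727569, 33.9 RPM on the plus strand faced 0.624 RPM across 15 bases.

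Convergent partners were less equal than divergent ones. For each library, the absolute log2 ratio of the partners was taken on RPM + 1. Its median was computed over pairs whose regions both averaged at least 1 RPM (77 convergent, 598 divergent and 966 same-strand pairs). It was 2.33 ± 0.17 for convergent pairs and 1.67 ± 0.049 for divergent pairs (SD, n = 8 libraries). The value for convergent pairs was the higher in 8 of 8 libraries, by 0.66 on average (exact sign-flip permutation test, two-sided p = 0.0078, the smallest that 8 libraries can give). With both partners at 5 RPM or more, which leaves 12 convergent pairs, the difference was 0.23 (exact p = 0.0156). All libraries measure the same regions, so the test covers the spread between libraries and not the choice of regions. Same-strand neighbours averaged 2.29 ± 0.068, for which no test was made. The 1 RPM limit kept 55% of the convergent pairs and 79.9% of the divergent ones, and the kinds of pair were not matched for level.

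Correlation of the partners across the libraries is given as a description, since the 8 libraries share 2 cluster lists and a depth each. Pearson's r between the partners had a median of 0.16 over the 77 convergent pairs, with quartiles of -0.44 and 0.52. It had a median of 0.62 over the divergent pairs and 0.68 over the same-strand pairs. The kinds of pair were not matched for level, and all 280 members had a median of 3 RPM, against 5.08 RPM over all regions. After each list's mean was subtracted, the medians were 0.07, 0.24 and 0.51 in the same order. Among the 77 convergent pairs, r was above 0.7 in 13 and below -0.7 in 11.

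**Figure D2:**
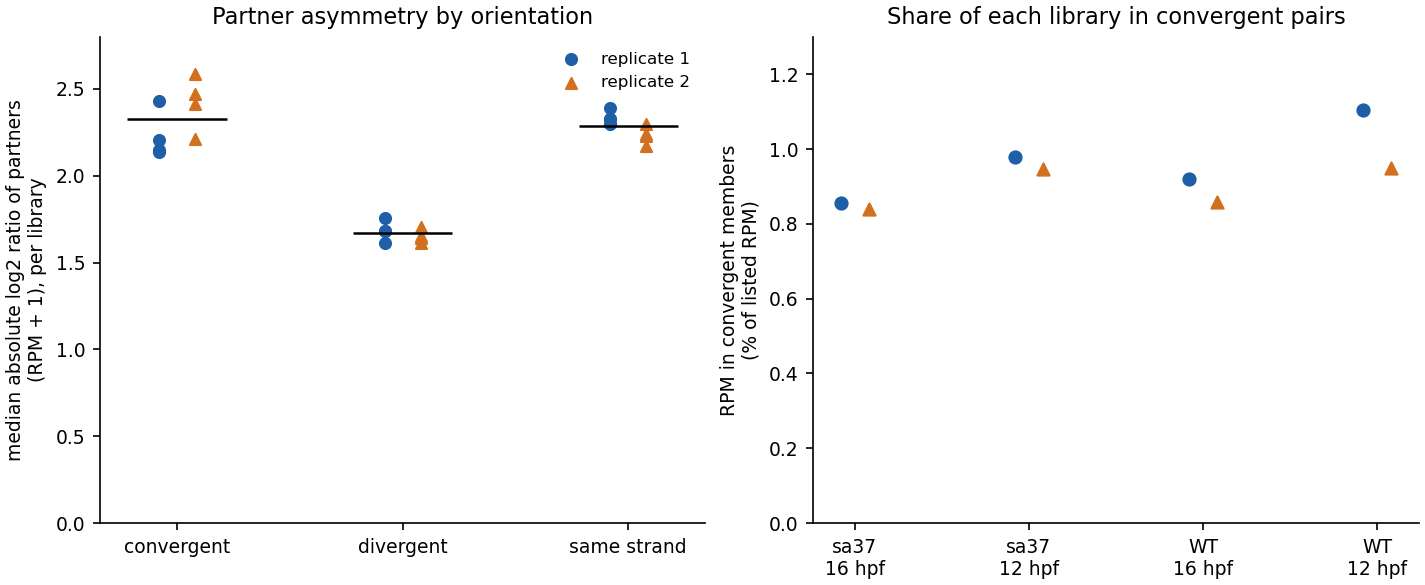
Left, median absolute log2 ratio of the partners (RPM + 1) in each library for convergent, divergent and same-strand pairs with both regions at 1 RPM or more. Circles are replicate 1, triangles replicate 2 and lines the means of 8 libraries. Right, share of each library's listed RPM in the 280 convergent members (%). All 8 convergent values lie above all 8 divergent ones, and the shares at 16 hpf lie between 0.841 and 0.92%.

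All convergent members together made up about a hundredth of each library. Their share of the listed RPM was 0.856 and 0.841% in sa37 and 0.92 and 0.858% in WT at 16 hpf, against 0.979 and 0.947% in sa37 and 1.1 and 0.948% in WT at 12 hpf. All 4 libraries at 16 hpf were below all 4 at 12 hpf, with means of 0.868 ± 0.0349% and 0.994 ± 0.074% (SD, n = 4 each; exact permutation test, two-sided p = 0.0286, the smallest that 4 against 4 can give). The strongest pair, on chromosome 4, carried most of this. Without it the shares were 0.742, 0.759, 0.807 and 0.742% at 16 hpf, against 0.783, 0.815, 0.824 and 0.777% at 12 hpf, and the groups overlapped (difference -0.0374 percentage points, exact permutation p = 0.1143). Without the replicate 1 library of WT at 12 hpf the difference was -0.0898 percentage points (exact permutation p = 0.0571, on 7 libraries). The remaining libraries at 12 hpf were still all above those at 16 hpf, so this p reflects the smaller number of libraries and not an overlap of the stages. Between genotypes the share was 0.906 ± 0.068% in sa37 and 0.957 ± 0.104% in WT (SD, n = 4 each), a difference within the spread of the libraries (exact permutation p = 0.4857).

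Stage differences were tested for the 211 members (100 plus and 111 minus) that averaged at least 1 RPM, out of 19000 regions tested together. In both contrasts the mean of each genotype or stage was averaged over the other factor. With no block, limma called 3 members between 16 and 12 hpf, 2 higher and 1 lower at 16 hpf, at an adjusted p under 0.05. The share called over all regions was 1.88%, with 1.51% higher and 0.374% lower. Deviations of the libraries followed the replicate number in every pair of groups, and with that number as a block 45 members were called, 19 higher and 26 lower at 16 hpf. That is 21.3% of the members, against 27.9% of all regions, 9% against 20.2% for those higher, and 12.3% against 7.73% for those lower. The median difference was -0.059 over the members and 0.085 over all regions, on the log2(RPM + 1) scale. The counts by direction depend on the scaling. With quantile normalization and the block, 56 members (26.5%) were called, 12 higher (5.69%) and 44 lower (20.9%). Over all regions 27.1% were called, 14.1% higher and 13% lower. The median differences were then -0.211 over the members and -0.052 over all regions. Under both scalings the members' share was below that of all regions for higher calls and above it for lower calls. These shares were not tested against each other. Of the 45 members, 38 were called under both scalings. Of the 19 higher at 16 hpf, 7 averaged under 1 RPM at 12 hpf and so passed the limit through the 16 hpf libraries alone.

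At the level of pairs, with the block, 41 pairs had a called member, and in 37 of them a single partner was called. The other partner was tested in only 19 of those 37, and one that was not called may still have changed. Those 19 are 24.7% of the 77 pairs with both partners tested, against 31.3% of the 598 divergent pairs and 26.4% of all 1641. Any called member was found in 29.9% of the 77 pairs, against 34.8% of all 1641. Calls of a single partner were thus no more frequent than the background. The stronger partner was called in 36 of 134 tested cases and the weaker in 9 of 77, against 27.9% of all regions. The weaker partner is the lower one by definition, and the log2(RPM + 1) scale understates changes of low regions. Among the 77 pairs with both partners tested, 0 had both called in the same direction and 4 (5.19%) had them called in opposite directions. Over all 1641 neighbouring pairs of every orientation these shares were 7.62% and 0.792%, and over the 598 divergent pairs 4.52% and 1.17%. The stage differences of the partners had the same sign in 40 of the 77 convergent pairs (51.9%), against 63.2% of the divergent and 74.3% of the same-strand pairs. These shares were not tested against each other, and the kinds of pair were not matched for level. The ratio of the partners within a pair, on log2(RPM + 1), was tested over the same 1641 pairs. The added 1 RPM weighs more on a weak start, so a scaling shared by both starts does not fully cancel. Without the block it was called in 1 of the 77 convergent pairs, against 0.183% of all. With the block it was called in 8 (10.4%), 4 towards the plus strand and 4 towards the minus strand at 16 hpf, against 3.66% of all pairs, 1.77% and 1.89% by direction. With a pseudocount of 0.1 in place of 1 RPM, no ratio was called among all 1641 pairs, with the block or without it.

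**Figure D3:**
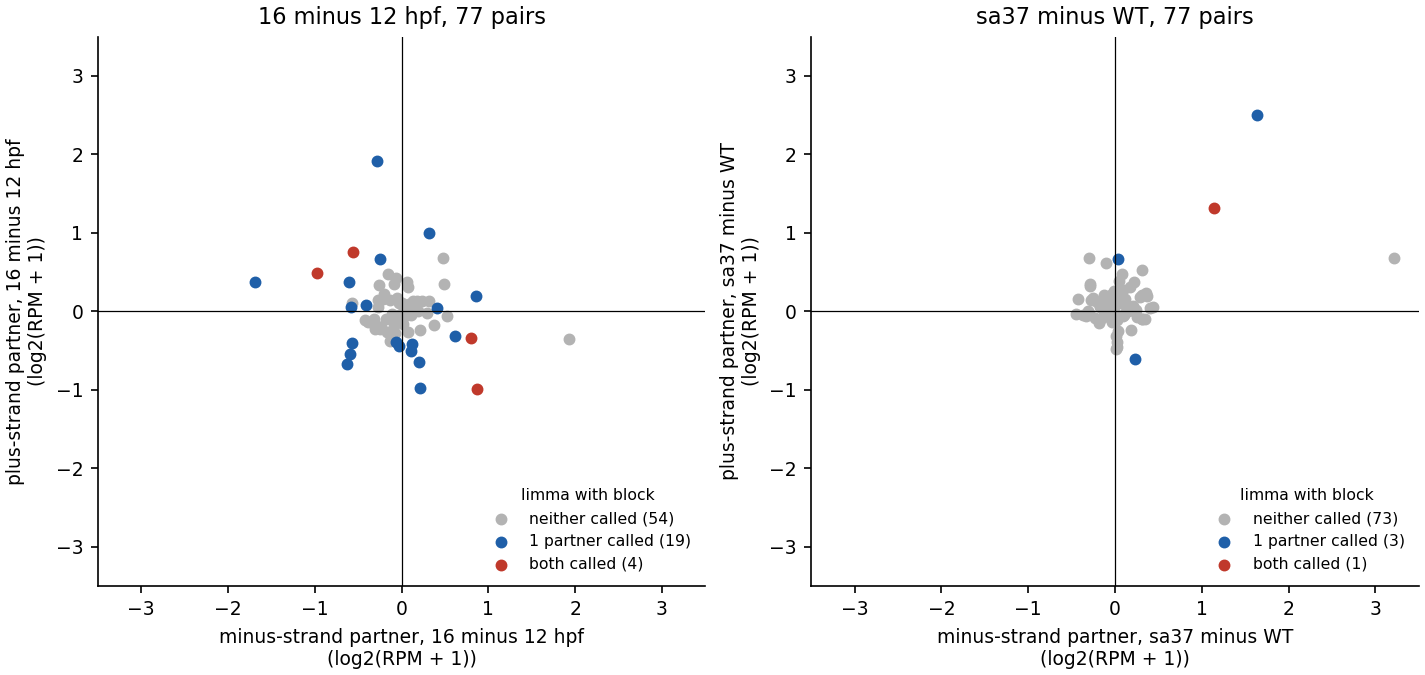
Difference of log2(RPM + 1) of the minus-strand partner (x) and the plus-strand partner (y) in the 77 convergent pairs with both partners tested, left for 16 minus 12 hpf and right for sa37 minus WT. Colours give calls by limma with the replicate block. The 4 pairs with both partners called for stage lie in the quadrants where the partners move in opposite directions.

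Among the called ratios, the largest change was on chromosome 23 between 35984705 and 35985221, with a gap of 154 bases. The plus start had 5.84 and 7.97 RPM in sa37 and 6.73 and 9.46 RPM in WT at 16 hpf, against 0.94 and 1.43 RPM in sa37 and 0.71 and 2.01 RPM in WT at 12 hpf. All libraries at 16 hpf were above all at 12 hpf. The minus start had 0.87 and 0.664 RPM in sa37 and 0.55 and 1.22 RPM in WT at 16 hpf, against 1.2 and 1.2 RPM in sa37 and 0.86 and 1.63 RPM in WT at 12 hpf, and here the stages overlapped. The plus start rose by 1.92 ± 0.29 (SE) on the log2 scale (limma, adjusted p = 0.0277, and 0.000277 with the block). The minus start differed by -0.29 (adjusted p = 0.209 with the block). The ratio of plus to minus rose by 2.21 ± 0.22 (adjusted p = 0.0484, and 0.00417 with the block). The plus start was the higher of the partners in 4 of 4 libraries at 16 hpf and in 2 of 4 at 12 hpf. Without the block the call of the ratio was lost with any 1 of the 8 libraries left out (adjusted p up to 0.249), and with it the call was kept each time.

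A pair on chromosome 3 between 23546765 and 23547454, with a gap of 350 bases, changed through its minus start. That start had 4.91 and 5.23 RPM in sa37 and 6.91 and 4.12 RPM in WT at 16 hpf, against 16.5 and 19.2 RPM in sa37 and 19.3 and 21.5 RPM in WT at 12 hpf. The stages did not overlap, and the start fell by 1.69 on the log2 scale (SE 0.24, adjusted p = 0.0248, and 0.000914 with the block). Its plus partner had 54.7 and 51.5 RPM in sa37 and 46.6 and 50.7 RPM in WT at 16 hpf, against 39.4 and 47.1 RPM in sa37 and 38.0 and 32.3 RPM in WT at 12 hpf. Those stages overlapped, and the difference of 0.38 missed the threshold (adjusted p = 0.0585 with the block). The ratio of plus to minus was higher at 16 hpf by 2.07 ± 0.24 (adjusted p = 0.0512, and 0.00691 with the block).

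The remaining start that was called for stage in the fit without the block lies on chromosome 23 between 35975992 and 35976079, in a pair with a gap of 681 bases. It had 2.89 and 2.7 RPM in sa37 and 2.32 and 3.11 RPM in WT at 16 hpf, against 0 and 0.172 RPM in sa37 and 0 and 0.3 RPM in WT at 12 hpf. It rose by 1.75 ± 0.23 on the log2 scale (adjusted p = 0.019, and 0.000315 with the block). Its mean of 1.44 RPM passed the 1 RPM limit through the 16 hpf libraries. The minus partner averaged 0.599 RPM and was not tested. It had 0.75 and 1.246 RPM in sa37 and 0.67 and 1.77 RPM in WT at 16 hpf, against 0 and 0.057 RPM in sa37 and 0 and 0.3 RPM in WT at 12 hpf, so that the stages did not overlap on this strand either. Without the block, leaving out any single one of the 8 libraries removed the calls of these 3 starts, with adjusted p up to 0.106 for this start, 0.134 for the plus start at 35984705 and 0.121 for the minus start on chromosome 3. With the block, all 3 were called with each of the 8 libraries left out.

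The 4 pairs with both partners called in opposite directions are on chromosomes 9, 3, 12 and 10. On chromosome 9 between 1968220 and 1969284, with a gap of 703 bases, the plus start had 3.12 and 4.65 RPM in sa37 and 3.73 and 3.15 RPM in WT at 16 hpf, against 8.03 and 8.47 RPM in sa37 and 6.82 and 9.56 RPM in WT at 12 hpf. The minus start had 1.79 and 6.15 RPM in sa37 and 1.9 and 5.21 RPM in WT at 16 hpf, against 0.77 and 2.63 RPM in sa37 and 0.71 and 1.93 RPM in WT at 12 hpf. The plus start fell with no overlap of the stages, and the minus start rose within each replicate number while the pooled libraries overlapped. The plus start fell by 0.99 (adjusted p = 0.123, and 0.00389 with the block) and the minus start rose by 0.87 (adjusted p = 0.622, and 0.0039 with the block).

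On chromosome 3 between 23557324 and 23558247, across a gap of 824 bases, the order of the partners differed with stage. The plus start had 5.95 and 6.02 RPM in sa37 and 3.98 and 5.47 RPM in WT at 16 hpf, against 2.22 and 4.07 RPM in sa37 and 2.2 and 2.74 RPM in WT at 12 hpf. The minus start had 4.05 and 4.9 RPM in sa37 and 4.95 and 4.88 RPM in WT at 16 hpf, against 7.69 and 7.67 RPM in sa37 and 6.74 and 7.5 RPM in WT at 12 hpf. The minus start was the higher in all 4 libraries at 12 hpf and in 1 of 4 at 16 hpf. The plus start rose by 0.75 and the minus start fell by 0.56 (adjusted p = 0.00831 and 0.00974 with the block, and 0.29 and 0.352 without it). The call of the minus start was lost without the replicate 1 library of sa37 at 16 hpf (adjusted p = 0.0574 with the block).

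On chromosome 12 between 92342 and 93211, the plus start rose by 0.48 (adjusted p = 0.0465 with the block) and the minus start fell by 0.98 (0.00799). On chromosome 10 between 16267363 and 16268252, the plus start, with a mean of 28.6 RPM, fell by 0.34 (0.0483), and the minus start, with a mean of 1.27 RPM, rose by 0.80 (0.00334). That minus start averaged 1.89 RPM at 16 hpf, against 0.658 RPM at 12 hpf, and passed the 1 RPM limit through the 16 hpf libraries. The smaller change of each of these last 2 pairs was called in 1 of 8 fits on chromosome 12 and in 0 of 8 on chromosome 10 when single libraries were left out, with adjusted p up to 0.178 and 0.161. Their larger changes were called in all 8. The ratio of plus to minus, with the block, fell by 1.86 for the chromosome 9 pair and by 1.15 for the chromosome 10 pair, and rose by 1.32 for the chromosome 3 pair and by 1.46 for the chromosome 12 pair (adjusted p = 0.00674, 0.0149, 0.016 and 0.00674). The ratios on chromosomes 9 and 12 were called with each of the 8 libraries left out, those on chromosomes 10 and 3 in 1 and 2 of 8 such fits, with adjusted p up to 0.0711 and 0.091.

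**Figure D4:**
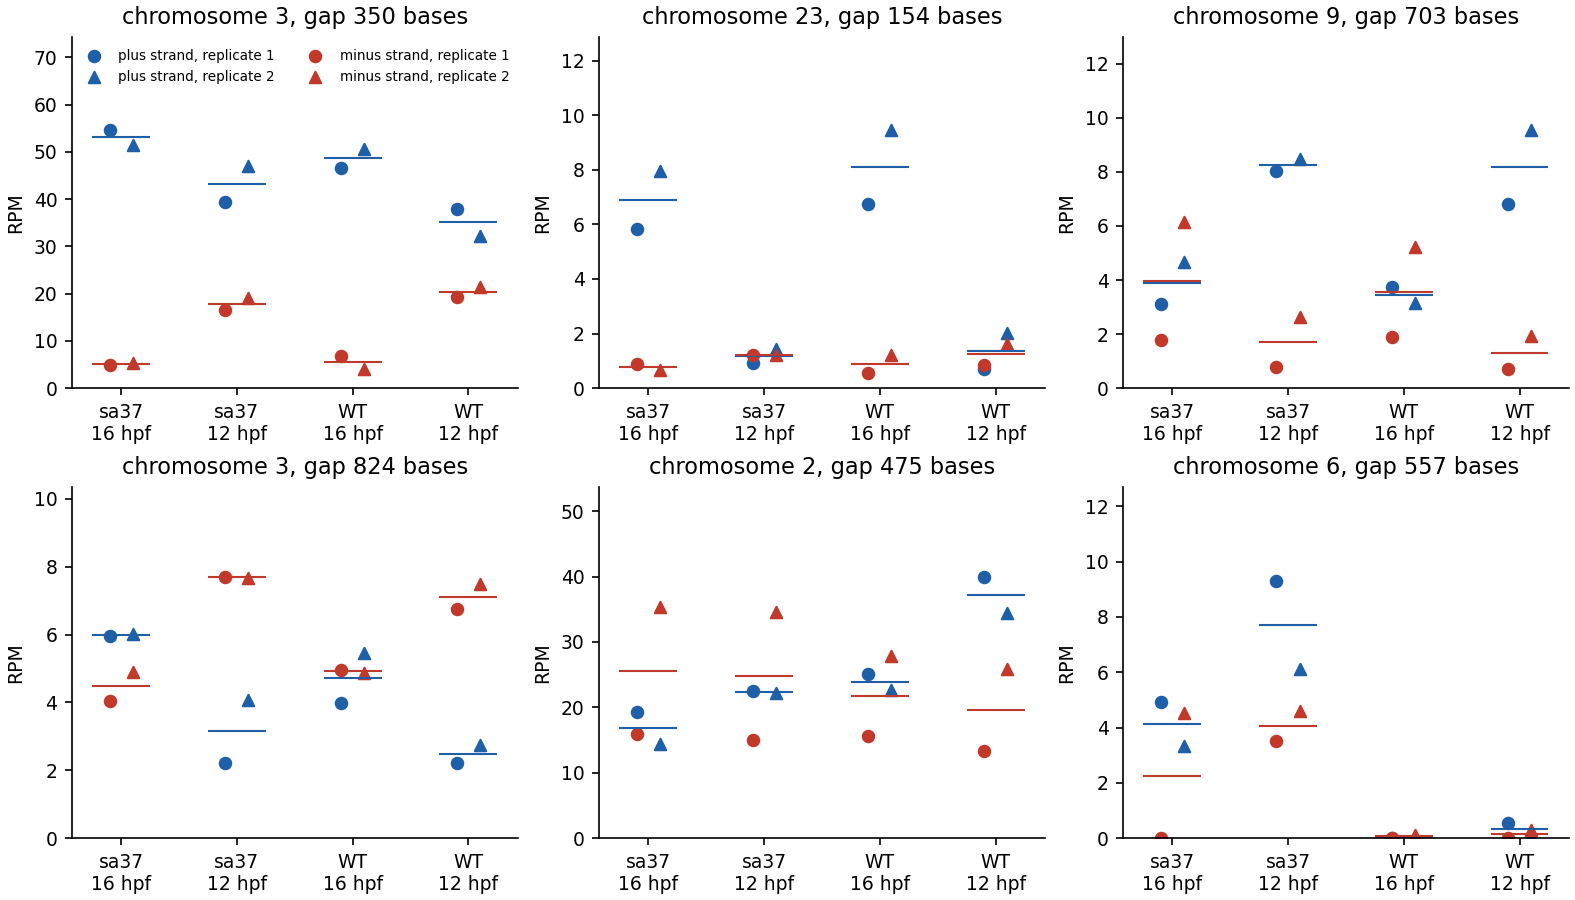
Level (RPM) of the plus-strand partner (blue) and the minus-strand partner (red) in each library of 6 convergent pairs, by group; circles are replicate 1, triangles replicate 2 and lines group means. In the chromosome 3 pair with a gap of 350 bases the minus start is at 4.12 to 6.91 RPM at 16 hpf, below the 16.5 to 21.5 RPM at 12 hpf, and in the chromosome 6 pair the plus start is higher in every sa37 library than in any WT library.

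Further members were named for stage, in pairs where a single partner was called. On chromosome 14 between 26137607 and 26138882, the plus start had 18.0 and 30.9 RPM in sa37 and 21.0 and 27.3 RPM in WT at 16 hpf, against 41.7 and 53.5 RPM in sa37 and 47.9 and 49.2 RPM in WT at 12 hpf. It fell by 0.98 with no overlap of the stages (adjusted p = 0.172, and 0.00357 with the block), while its minus partner differed by 0.21 (adjusted p = 0.198 with the block). The ratio fell by 1.19 (adjusted p = 0.016 with the block, called in 2 of 8 fits with a library left out). The plus starts of both strong pairs on chromosome 4 fell with the block, by 0.84 for the stronger (adjusted p = 0.00805, and 0.247 without the block) and by 0.68 for the other (0.01, and 0.574 without it). The minus partner of the second of these differed by -0.63 (adjusted p = 0.103 with the block), close to its plus start, and the ratio differed by -0.05. The minus partner of the stronger pair was not tested. A minus start on chromosome 6 at 40009132 to 40009317, with a mean of 50.8 RPM, fell by 0.83 (adjusted p = 0.0176 with the block, called in 4 of 8 fits with a library left out). Weak minus starts on chromosome 23 at 45082116 and on chromosome 24 at 41448996, with means of 1.24 and 1.15 RPM, rose by 0.88 and 0.76 (adjusted p = 0.0104 and 0.0299 with the block, called in 7 and 2 of 8 such fits). They averaged 1.9 and 1.67 RPM at 16 hpf, against 0.573 and 0.625 RPM at 12 hpf, and so passed the 1 RPM limit through the 16 hpf libraries. The plus partners of these 2 starts and of the chromosome 6 start were not tested. On chromosome 14 between 2820085 and 2820575, with a gap of 39 bases, the minus start rose by 0.61 (adjusted p = 0.0102 with the block) and the plus start differed by -0.32 (0.266). The ratio fell by 0.93 (adjusted p = 0.0331 with the block), a call lost with any 1 of the 8 libraries left out (up to 0.139).

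Genotype differences were fewer. Without the block, limma called 1 member, higher in sa37, against 0.632% of all regions. With the block it called 13 members (6.16%), 8 higher and 5 lower in sa37, against 7.36% of all regions, 4.74% higher and 2.63% lower. The share of members called was thus no larger than the background. Of the 8 members higher in sa37, 3 averaged under 1 RPM in WT and so passed the limit through the sa37 libraries alone. The median difference was 0.051 over the members and 0.055 over all regions on the log2 scale. The stronger partner was called in 11 of the 134 tested cases and the weaker in 2 of 77, with the block, against 7.36% of all regions. The scale understates changes of the weaker partners here too.

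The single member called without the block is the plus start on chromosome 6 at 55389919 to 55389928. It had 4.91 and 3.32 RPM in sa37 and 0 and 0.084 RPM in WT at 16 hpf, and 9.31 and 6.13 RPM in sa37 and 0.55 and 0.086 RPM in WT at 12 hpf. Every sa37 library was above every WT library at both stages. The start rose by 2.50 ± 0.26 on the log2 scale (adjusted p = 0.015, and 0.000444 with the block). Its mean of 3.05 RPM passed the 1 RPM limit through the sa37 libraries. Without the block, leaving out any 1 of the 8 libraries ended the call, with adjusted p up to 0.0855, and with the block it was called each time. The minus partner, 557 bases away, had 0 and 4.53 RPM in sa37 and 0 and 0.126 RPM in WT at 16 hpf, and 3.5 and 4.58 RPM in sa37 and 0 and 0.3 RPM in WT at 12 hpf. One sa37 library is listed at 0 there, and the difference of 1.64 missed the threshold (adjusted p = 0.578, and 0.0544 with the block).

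With the block, both partners were called in the same direction in 1 of the 77 pairs (1.3%, against 1.28% of all 1641), on the unplaced sequence KN150708.1 between 30638 and 31609 with a gap of 800 bases. Its plus start had 5.55 and 4.98 RPM in sa37 and 2.57 and 1.22 RPM in WT at 16 hpf, and 4.19 and 4.87 RPM in sa37 and 0.86 and 1.07 RPM in WT at 12 hpf. The minus start had 4.62 and 10.8 RPM in sa37 and 4.53 and 2.78 RPM in WT at 16 hpf, and 5.72 and 6.64 RPM in sa37 and 1.41 and 1.84 RPM in WT at 12 hpf. All sa37 libraries were above all WT libraries on both strands. The plus start rose by 1.32 (adjusted p = 0.121, and 0.00734 with the block) and the minus start by 1.14 (adjusted p = 0.386, and 0.0425 with the block). The call of the minus start was lost in 6 of 8 fits with a library left out, with adjusted p up to 0.134.

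The balanced pair on chromosome 2 between 3203044 and 3203945 was the only convergent pair whose partner ratio was called for genotype with the block, against 4.88% of all 1641 pairs. Without the block the count was 0, with 3 pairs at an unadjusted p under 0.05. The plus start had 19.3 and 14.3 RPM in sa37 and 25.1 and 22.6 RPM in WT at 16 hpf, and 22.5 and 22.2 RPM in sa37 and 39.99 and 34.5 RPM in WT at 12 hpf. It was lower in every sa37 library than in every WT library, by 0.60 on the log2 scale (adjusted p = 0.753, and 0.0259 with the block). The minus start had 16.0 and 35.3 RPM in sa37 and 15.7 and 27.9 RPM in WT at 16 hpf, and 15.0 and 34.6 RPM in sa37 and 13.3 and 25.9 RPM in WT at 12 hpf. It differed by 0.23 (adjusted p = 0.266 with the block), and its values followed the replicate number. The ratio of plus to minus fell by 0.83 (block SE 0.15, adjusted p = 0.032 with the block, lost with any 1 of the 8 libraries left out, up to 0.124). The call of the plus start was likewise lost each time (up to 0.111).

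Among the other members named for genotype, a plus start on chromosome 23 at 38228302 to 38228375 stood apart in size. It had 1.39 and 4.53 RPM in sa37 and 3.98 and 10.3 RPM in WT at 16 hpf, and 1.88 and 5.84 RPM in sa37 and 6.12 and 14.6 RPM in WT at 12 hpf. Within each replicate number both sa37 libraries were below both WT libraries, and the start fell by 1.15 on the log2 scale. By limma the adjusted p was 0.9999 without the block and 0.00184 with it. With the block the start was called with each of the 8 libraries left out. A minus start on chromosome 6 at 40774053 to 40774092, with a mean of 41.6 RPM, fell by 0.72 (0.0169 with the block). With the block, lower values in sa37 were also called for a plus start on chromosome 15 at 31548 (-0.85, adjusted p = 0.0244) and a minus start on chromosome 11 at 18027224 (-0.52, 0.0268). Higher values in sa37 were called, also with the block, for plus starts on chromosome 12 at 292330 (0.99, 0.0102) and on chromosome 8 at 387566 (0.79, 0.018). The start on chromosome 12 averaged 2.17 RPM in sa37 and 0.571 RPM in WT, and passed the 1 RPM limit through the sa37 libraries. With single libraries left out, these 5 were called in 1, 2, 0, 6 and 1 of 8 fits in the order given. Without the block none of the 5 was called (limma, adjusted p from 0.436 to 0.9999).

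The widest genotype difference of a tested member was not called, and it is given because of its values, after they were seen. The minus start on the unplaced sequence KN150127.1 at 3671 to 4084 had 52.7 and 28.1 RPM in sa37 and 282.4 and 0.21 RPM in WT at 16 hpf, and 77.4 and 25.02 RPM in sa37 and 0 and 0.257 RPM in WT at 12 hpf. A single WT library was above all the others, and the remaining 3 were at 0.257 RPM or less, below every sa37 library. The difference was 3.21 ± 1.57 (adjusted p = 0.184 with the block).

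The genotype by stage interaction was called for no member and for no region, with the block or without it (limma, background 0%). At an unadjusted p under 0.05, 6 members passed in the blocked fit and 0 in the other one. The smallest adjusted p of a member was 0.985 in the blocked fit.

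Some convergent pairs follow one another along a chromosome. Another pair lay within 25000 bases for 18 of the 140 pairs, and within 1000 bases for 4. The neighbourhoods described next were singled out after their values were seen. Neighbouring pairs within 25000 bases on chromosomes 6, 7 and 15 are not described. None of their tested members was called for stage with the block. On chromosome 23, pairs begin at 35975992, 35984705 and 35996492, with 7863 and 11271 bases between them. The plus starts of the left and middle pairs are those that rose at 16 hpf above. In the right pair, the minus start fell by 0.60 (adjusted p = 0.0437 with the block, called in 2 of 8 fits with a library left out) and the plus start differed by 0.38 (0.067). On chromosome 3, pairs begin at 23538242, 23546765 and 23557324, with 7593 and 9870 bases between them. Their minus starts differed by -0.57, -1.69 and -0.56 (adjusted p = 0.0541, 0.000914 and 0.00974 with the block), and their plus starts by 0.10, 0.38 and 0.75 (0.591, 0.0585 and 0.00831). In all 3 pairs the estimate was thus positive on the plus strand and negative on the minus strand, although only 1 plus start and 2 minus starts were called. The next pair to the right, at 23604418, lies 46171 bases away and went the other way on the minus strand. Its minus start rose by 0.59 (limma, adjusted p = 0.0435 with the block), from a mean of 0.98 RPM at 12 hpf, and its plus start was not tested.

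On chromosome 9, the pair at 1964275 and the pair at 1968220 are 3278 bases apart. The strong minus start of the left pair fell by 0.57 (adjusted p = 0.0178 with the block, called in 4 of 8 fits with a library left out), while the minus start of the right pair rose, as given above. On chromosome 20, a pair between 25726742 and 25727033 overlaps the pair that begins at 25726978, so that the minus start of the first, with a mean of 140.3 RPM, and the plus start of the second, with 33.9 RPM, overlap on opposite strands. That plus start fell by 0.52 (adjusted p = 0.0118 with the block, called in 5 of 8 such fits) and that minus start differed by -0.31 (0.149).

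**Figure D5:**
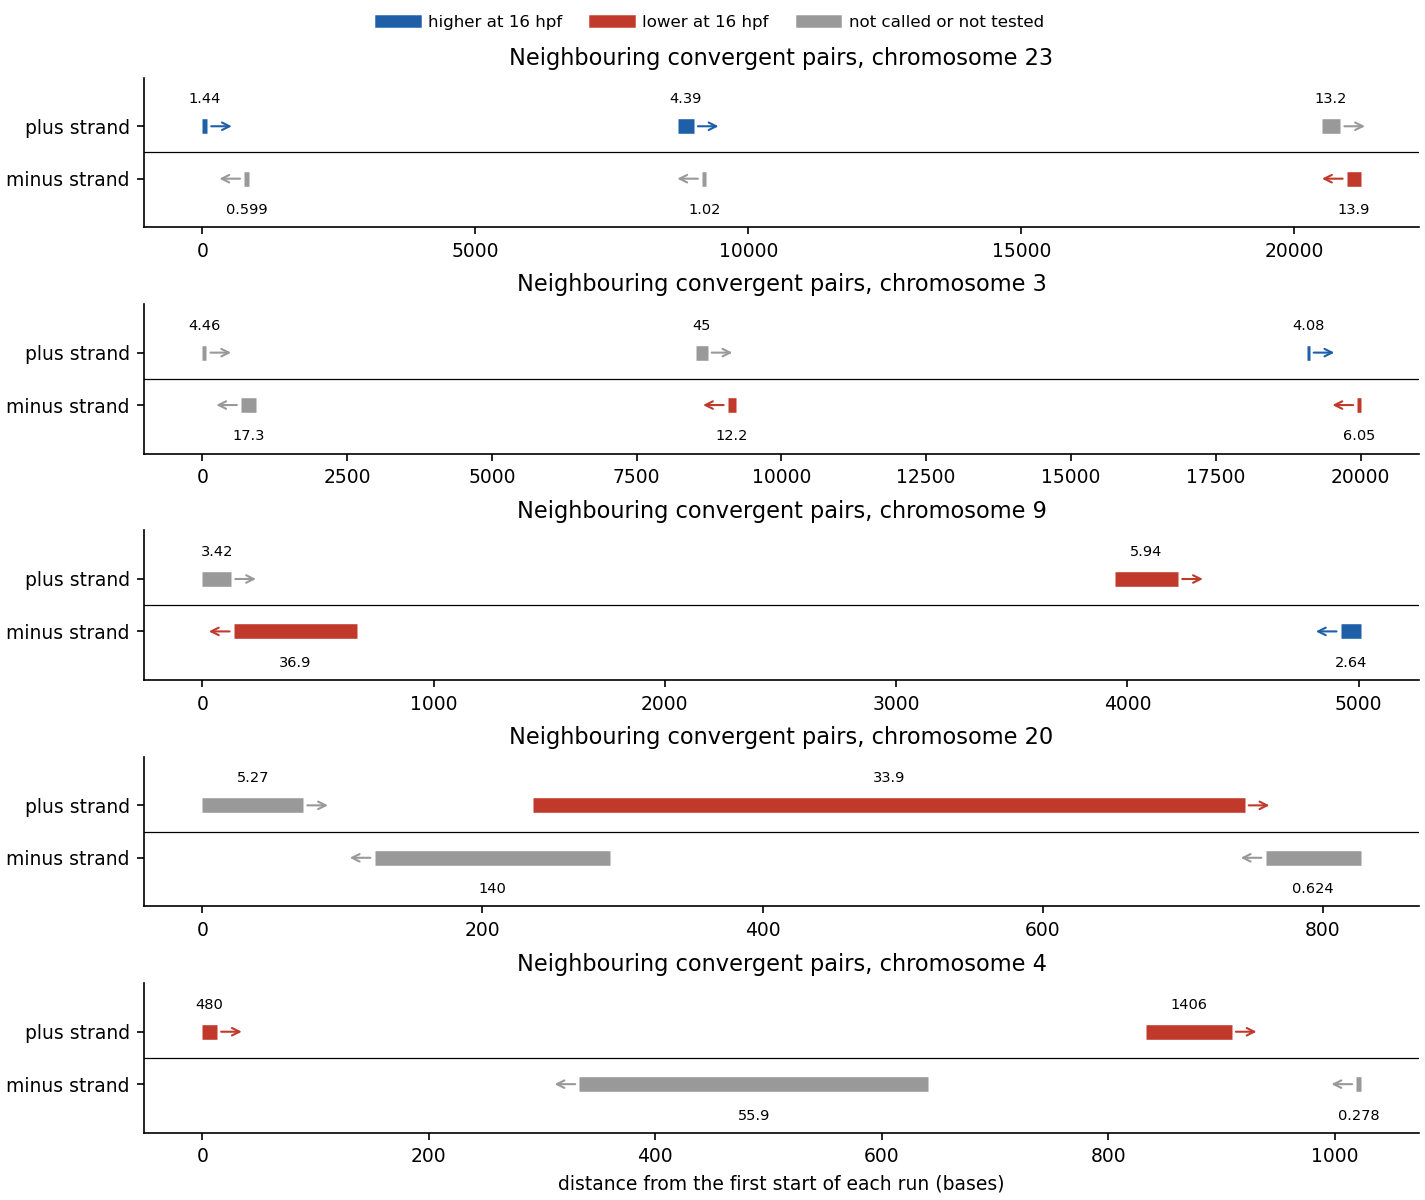
Members of neighbouring convergent pairs on 5 chromosomes, drawn to scale as boxes by strand against the distance from the first start (bases); arrows give the direction of transcription, numbers are mean RPM over the 8 libraries, and colours give the stage call by limma with the replicate block. On chromosome 23 the 2 left plus starts are higher at 16 hpf, on chromosome 3 calls on the minus strand are lower, and on chromosome 4 both plus starts are lower.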

How the data were processed

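Per the labels' protocols, capped RNA of whole embryos was captured for CAGE and sequenced; the submitters' processing notes name BWA, HISAT2 and danRer10, with no roles given here. The RPM values per tag cluster were deposited by the authors; the clustering method is not given in the sources used here. Repeated rows (412 in list 1, 796 in list 2) were counted once, and 4 rows with no name in 3 files were left out. Clusters of both lists that overlapped on the same strand were merged and their RPM added, giving 42130 regions; the 6397 and 12131 regions of 1 list alone were not used. Coordinates are those of the files. Pairs were found as described above. The unit being normalized, limma 3.58.1 (R 4.3.3) was fitted to log2(RPM + 1) of the 19000 regions that averaged 1 RPM or more, with a mean per group, two-sided p and Benjamini-Hochberg adjustment over all of them, called under 0.05. The scale understates changes of low regions. A second fit added the replicate number, taken from the titles, as a block. Replicate deviations correlated between groups at 0.68 to 0.83 across regions. The replicate numbers also mark the cluster list, so these correlations cannot tell whether the libraries are paired in any other way.

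RPM came in whole steps, so depth could be read from them. A floor of 3 tags was 0.125 to 0.172 RPM in replicate 2, and in replicate 1 the smallest listed value above 0 was 0.51 to 0.55 RPM. These cover counting error only, since tags carry no molecular identifiers. Named pairs are the 10 strongest, up to 10 best balanced at 10 RPM or more, the 5 with the smallest gap, the 5 members per direction and contrast with the smallest p (with the block where fewer than 5 passed without it), pairs with both partners called, and up to 5 ratio calls per direction. Pairs near windows of chromosomes 7 and 25 were also to be named, and none was found. The members, lists and rules were chosen with earlier results of these data known. The scripts were tested on simulated data. No genome of the build was used here, so no sequence or gene name is given.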

Additional observations from a re-analysis of the deposited data

How the results depend on the processing

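Without the block, members called numbered 1 for genotype and 3 for stage, and the partner ratio 0 and 1. With the replicate block these were 13, 45, 1 and 8. Over all regions or pairs, the shares called were 0.632%, 1.88%, 0% and 0.183% without the block. They were 7.36%, 27.9%, 4.88% and 3.66% with it. Leaving out each library gave 0 to 1, 0, 0 and 0 without the block, and 4 to 8, 18 to 31, 0 to 1 and 4 to 6 with it. A 5 RPM filter gave 0, 1, 0 and 0, quantile normalization 0, 6, 0 and 2, and pairs with a gap of up to 300 bases 0 and 1 members. Where no share or count over all regions is printed for a setting, its counts show only how the calls moved. They are not read against a background. The stage ratio call was absent with a pseudocount of 0.1 RPM and with no filter (0 each). Settings chosen after seeing the data were the block with quantile normalization (10, 56, 1 and 9), the block with a pseudocount of 0.1 RPM (3, 22, 0 and 0) and edgeR 4.0.16 on the recovered tags of replicate 2 alone (23 members for genotype, and 46 for stage with 14 of them higher at 16 hpf, out of 2520 and 4810 regions called; 100% of the values came out as whole tags). The causes of these differences were not tested, other than fewer libraries or regions in a fit. None of the named differences that were called reversed its direction under the settings run for it, and other differences were not checked. The median stage difference over all regions, however, was 0.085 as deposited and -0.052 with quantile normalization. The balance of the members' stage calls also turned, from 2 higher and 1 lower without the block to 19 and 26 with it. With the block and quantile normalization these were 12 and 44. The planned edgeR and DESeq2 fits on all 8 libraries were not run, because list 1 holds no value above 0 and under 0.5 RPM: its steps gave its depth, but its low tag counts are missing.

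The stage difference of the members' share, -0.126 percentage points, had an exact permutation p of 0.125 with labels permuted within the replicate block, where no smaller p is possible. By the exact permutation test it was -0.0629 (p = 0.2857) for gaps of up to 300 bases, -0.0374 (p = 0.1143) without the strongest pair and -0.143 to -0.0898 with each library left out. The genotype difference was -0.0844 to -0.0026 with each library left out. The difference in partner asymmetry between convergent and divergent pairs was 0.23 to 0.996 under its alternatives. Each passed the sign-flip test, but all libraries measure the same regions. The test thus covers the spread between libraries and not the choice of regions. The number of pairs depends most on the regions allowed: 327 with the clusters of replicate 1 alone, 372 with those of replicate 2, 515 with all merged regions and 77 with both means at 1 RPM or more, against 141 when clusters within 100 bases were merged. The weaker partners, with a median of 1.04 RPM, lie near that lower bound of list 1, which is above the floor of 3 tags (0.173 to 0.256 RPM) in those libraries.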
